A study of Mus musculus with 4 samples.

Results

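For the fast-fiber contractile apparatus, 10 genes were followed in TA muscle, the tibialis anterior of the mouse hindlimb, which consists mostly of fast fibers. They were the fast troponins Tnnt3, Tnni2 and Tnnc2, the fast myosin light chains Mylpf and Myl1, and Actn3, Mybpc2, Myoz1, Tpm2 and Pvalb. The list was named by gene symbol, each symbol matched 1 row of the deposited values, and all 10 genes had a value in all 4 samples, among 20340 gene labels in all. Samples came from C57BL/6 mice aged 20 months (Old 1 and Old 2) or 3 months (Young 1 and Young 2), without any treatment or engineered allele in the labels. The labels give the tissue only as muscle, and the study's methods name it TA. The methods also state that sex was picked at random, and the sex behind each sample is not known here. The study describes a pair of independent sequencing experiments per age and several mice per group, the design text of the series speaks of triplicates, and none of these sources ties mice to a sample. The values were FPKM, that is, sequenced fragments scaled to transcript length and to the fragments mapped in the sample, so that levels of genes of different length could be compared.

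In a fast fiber, calcium binds troponin C (Tnnc2), which relieves the block set by troponin I (Tnni2) and held on the thin filament by troponin T (Tnnt3) together with tropomyosin, of which Tpm2 encodes the beta chain. Myosin heads then pull with the help of a regulatory light chain (Mylpf) and an essential light chain (Myl1), and myosin-binding protein C (Mybpc2) lies along the thick filament. Alpha-actinin-3 (Actn3) and myozenin-1 (Myoz1) sit in the Z-disc, where thin filaments are anchored, and parvalbumin (Pvalb) is a soluble calcium buffer that speeds relaxation. Slow fibers use other genes for most of these parts, among them Tnnt1, Tnni1, Tnnc1, Myl2 and Tpm3, and both gene sets are compared between ages below.

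Stretches before the RefSeq start sites were printed for the 3 members whose 250 bases before that start held the E-box CAGCTG. This is a site that myogenic transcription factors can bind. RefSeq promoters (GRCm38.p6, the assembly of mm10) were at hand for 6 of the 10 genes, and 1 of them, Pvalb, had 2 start sites. Of these 7 promoters, 3 held CAGCTG on either strand, against 13.0% of 32851 promoters, and it was held by 6 of 12 promoters of the slow or other counterparts described further on. Capitals mark CAGCTG and, in Myl1 alone, a TATA box (TATAAA) and an MCAT element (CATTCC), searched on both strands.
Mylpf, chr7:127211358-127211607, plus strand: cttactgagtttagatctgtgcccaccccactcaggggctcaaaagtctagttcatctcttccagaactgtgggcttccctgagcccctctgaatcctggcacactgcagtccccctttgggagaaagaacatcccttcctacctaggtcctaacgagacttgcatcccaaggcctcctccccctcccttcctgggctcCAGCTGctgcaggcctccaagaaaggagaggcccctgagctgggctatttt
Myl1, chr1:66945057-66945306, minus strand: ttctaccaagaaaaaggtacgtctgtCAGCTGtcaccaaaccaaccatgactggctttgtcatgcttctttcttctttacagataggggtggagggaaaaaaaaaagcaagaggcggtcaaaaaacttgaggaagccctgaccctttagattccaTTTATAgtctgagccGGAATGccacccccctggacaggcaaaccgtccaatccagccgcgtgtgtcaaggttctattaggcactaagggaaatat
Tpm2, chr4:43523555-43523804, minus strand: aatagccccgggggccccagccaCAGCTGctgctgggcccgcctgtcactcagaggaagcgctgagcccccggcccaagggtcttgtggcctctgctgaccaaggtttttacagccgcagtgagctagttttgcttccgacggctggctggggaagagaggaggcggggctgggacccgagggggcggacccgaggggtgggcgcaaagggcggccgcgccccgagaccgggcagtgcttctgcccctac
TATAAA was found in 1 and CATTCC in 2 of the 7 promoters, against 12.4% and 12.6% of all promoters. A MEF2 site was found in 1, that of Pvalb, against 1.69% of all promoters. Such matches describe the letters in these windows and say nothing of binding. RefSeq and GENCODE M21 starts can differ. By the GENCODE spans given below, the Mylpf and Myl1 windows lie inside the gene, and the Tpm2 window does in part.

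Samples of 1 age were far apart in scale. Genes with a mean of 1000 FPKM or more, which include the members above 0 in all samples, were further apart than the median of all genes. The FPKM of the 20605 loci measured in every sample added up to 698130 (Old 1) and 739302 (Young 2), but only to 226747 (Old 2) and 251294 (Young 1). Old 1 and Young 2 are referred to as the samples with larger sums, and Old 2 and Young 1 the samples with smaller sums. Over the 9293 tested genes above 0 in all 4 samples, the median log2 ratio was 1.11 for Old 1 over Old 2 and 1.08 for Young 2 over Young 1. For the 9 members above 0 in all 4 samples the medians were 2.48 and 2.12. At a mean of 30 to 100 FPKM the median ratios were 0.98 and 0.96, with a robust SD across genes of 0.05 for both, against 0.38 and 0.39 for Old over Young within samples of like sum. The ratios rose to 1.42 and 1.47 for 40 genes at 1000 to 3000 FPKM, 4 of them members, and to 2.35 and 2.23 for 12 genes above that, 5 of them members. The number of reads behind a value is unknown, so the sampling noise of these ratios was not computed, and whether the samples of an age came from separate animals or from 1 library was not tested. If they were 1 library, each age would hold 1 sample and the limma p-values given here would not measure a spread between muscles. Values are therefore given per sample, and each Old sample is also set against the Young sample of like sum, a pairing chosen after the values were seen.

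**Figure D1:**
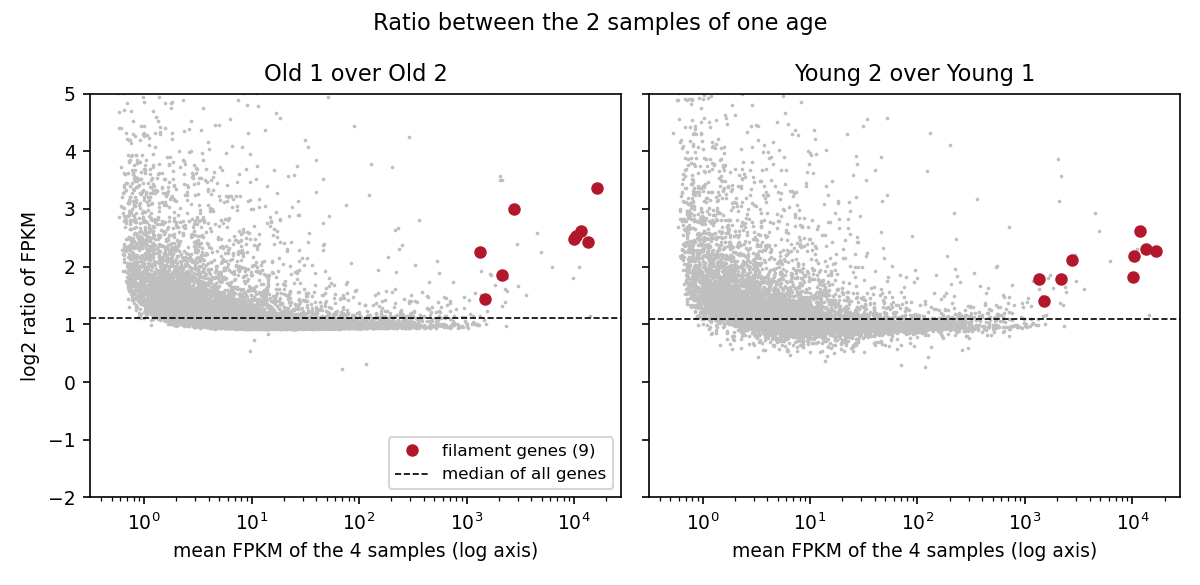
The log2 ratio of FPKM between the 2 samples of an age (left, Old 1 over Old 2; right, Young 2 over Young 1) is plotted against the mean FPKM of the 4 samples on a log axis, with 1 grey point per gene, a dashed line at the median of all genes and the 9 members above 0 in all samples in red. The axis is limited to log2 ratios from -2 to 5. All 9 members lie above the dashed lines, which are at 1.11 and 1.08. So do the medians of all genes of like level, members included: 1.42 and 1.47 at 1000 to 3000 FPKM, 2.35 and 2.23 above that.

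The samples held skeletal muscle transcripts, with gaps in the marker list. Mb, the oxygen store myoglobin, ranged from 1092 to 5739 FPKM, but Ckm, muscle creatine kinase, and Myh4, the fastest myosin heavy chain of the limb, were listed at 0 in all 4 samples. Among 10 muscle markers, which include Mylpf and Tnnt3, 8 had a value and 5 were listed at 0 in at least 1 sample. Of 5 cardiac markers, all were measured and their summed level was 0.858 to 4.13 FPKM, with Myl7 listed at 0 throughout. All 6 macrophage markers were lower in Old than in Young in both pairs of like sum, with summed FPKM of 17.1 (Old 1), 4.97 (Old 2), 7.60 (Young 1) and 24.3 (Young 2). The hemoglobin alpha genes, which share reads under 1 label, exceeded their Young level by 6.85-fold (larger sums) and 7.02-fold (smaller sums). Of 5 fibroblast markers, 3 were lower and 2 higher in Old in both pairs. Summed levels, from the lowest to the highest sample, were 27.9 to 61.5 FPKM for 4 endothelial markers, 12.2 to 35.5 FPKM for 3 Schwann cell markers, 18.8 to 49.2 FPKM for 2 smooth muscle markers and 167 to 499 FPKM for 5 adipocyte markers, of which Cfd was listed at 0 in Old 2 and Young 1. The part of other cell types in the results below was not tested.

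The fast-fiber genes were among the most abundant of the transcripts with a value at either age. Together the 10 genes made up 18.9% (Old 1), 9.22% (Old 2), 10.7% (Young 1) and 15.1% (Young 2) of all FPKM. The ages overlapped, and the share was higher in the samples with larger sums. Fewer fibers of a type and less RNA per fiber cannot be told apart in whole muscle. A member was the highest of all gene labels with a value in Old 1 (Tnnc2) and in Young 2 (Mylpf), and 8 members, all but Tnnt3 and Mybpc2, ranked among the top 50 in all samples. The muscle genes Acta1, Atp2a1 and Tpm1 had no value, and Ckm and Myh4 were listed at 0 in every sample. The ranks and shares therefore do not place the members against these genes. Mybpc2 ranked 35 and 42 in Old and 76 and 62 in Young. How often the ranks of all genes fail to overlap between ages was not computed, so these ranks are not a result about Mybpc2.

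**Figure D2:**
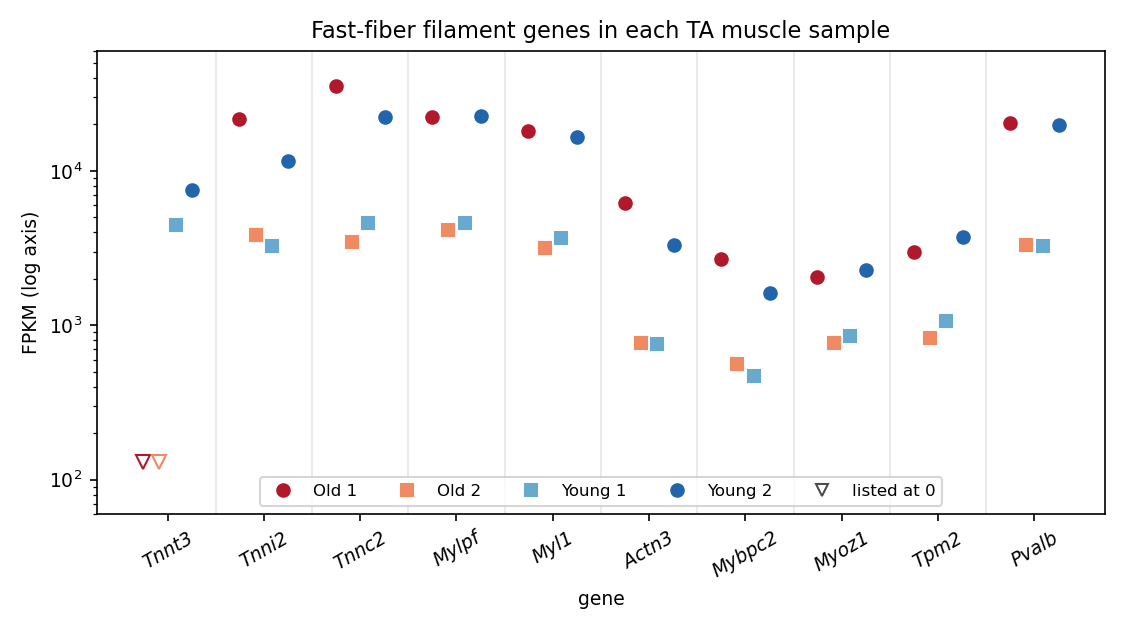
FPKM on a log axis is plotted for each of the 10 genes in Old 1 (dark red circles), Old 2 (orange squares), Young 1 (light blue squares) and Young 2 (dark blue circles). Open triangles mark values listed at 0 and stand at an arbitrary height. Within each age circles lie above squares for every value above 0, and Tnnt3 alone is listed at 0 in both Old samples.

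Tnnt3, which encodes fast troponin T, was the one member whose values did not overlap between ages. Both Old samples list it at 0, whereas Young 1 had 4465 FPKM and Young 2 had 7509 FPKM. It ranked 5 and 15 among all labels in Young 1 and Young 2, and no fold is given against values listed at 0. The gene lies on chromosome 7 from 142498836 to 142516009 on the plus strand (GENCODE M21, mm10) and has 27 annotated transcripts. Its locus in the deposited values reaches from 142460870 to 142516540 and is shared with Lsp1, a leukocyte actin-binding protein gene. Lsp1 was listed at 0 in Old 1, Old 2 and Young 1 and had 173 FPKM in Young 2. Prr33 overlaps Tnnt3 on the other strand, and the sources differ on whether the library kit kept the strand.

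Values of 0 also fell on other abundant muscle genes. Of 26 gene labels at 1000 FPKM or more in both Young samples, 2 were listed at 0 in both Old samples, Tnnt3 and a locus of chromosome 4 without a symbol. None of the 19 labels at that level in both Old samples was listed at 0 in Young. Within an age, 11 of 78 labels at 1000 FPKM or more in Old 1 were listed at 0 in Old 2, and 15 of 97 in Young 2 were listed at 0 in Young 1. Neb, the giant ruler protein of the thin filament, was among both, with 2361 FPKM in Old 1 and 1775 FPKM in Young 2 against 0 in the other samples. Ttn, the molecular spring of the sarcomere, was listed at 0 in Old 1 and Old 2, with 14.1 FPKM in Young 1 and 299 FPKM in Young 2. Whether a 0 is a failed estimate was not tested, and the value of Tnnt3 in old muscle is described only as listed at 0.

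Old and Young were also compared on the log2(FPKM + 1) scale with limma over 10266 genes, with Benjamini-Hochberg adjustment over all of them. Of the 10 members 1, Tnnt3, was called lower and 0 were called higher, where 0.127% of all genes tested were lower and 0.175% higher. Tnnt3 had passed the filter on low values through the Young samples alone and its call rests on the values listed at 0, so the call adds no evidence to those values. At an unadjusted p under 0.05 the fit gave 35 genes higher and 42 lower. The p rests on a spread shared by all genes, and an exact permutation test of 2 samples against 2 gives no two-sided p under 0.333. The values entered the fit unscaled, so the standard errors given below include the gap in scale between samples of an age. They ran from 1.25 (Mybpc2) to 1.79 (Tnnc2) for the members above 0 in all samples. With median scaling they ran from 0.18 (Myoz1) to 0.86 (Tnnc2), and Tnnt3 was still the only member called. Both Old samples lay below both Young samples for Tnnt3 alone among the members, against 1.93% of all genes tested, and above them for 0 members, against 1.61%. With 1 Young sample left out Tnnt3 no longer passed the filter and was not tested.

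The other 2 fast troponins were above 0 in every sample and overlapped between ages. For Tnni2, troponin I, the FPKM were 21600.3 (Old 1), 3862 (Old 2), 3268 (Young 1) and 11528 (Young 2). Old 1 exceeded Young 2 by 1.87-fold and Old 2 exceeded Young 1 by 1.18-fold. Tnni2 lies upstream of Tnnt3 on chromosome 7, from 142441808 to 142444410, at a locus of its own.
Tnnc2, troponin C, had 35474 FPKM in Old 1, 3469 FPKM in Old 2, 4599 FPKM in Young 1 and 22227 FPKM in Young 2. It was 1.60-fold higher in Old in the pair with larger sums and, at 0.754-fold, lower in Old in the pair with smaller sums, so its direction was not the same in both. The log2 fold changes were 0.57 (standard error 1.69) for Tnni2 and 0.13 (standard error 1.79) for Tnnc2, with an adjusted p of 1.00 for each from limma. Tnnc2 lies on chromosome 2 from 164777161 to 164779967, minus strand, and overlaps Ube2c on the other strand.

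The fast myosin light chains stood near the same level at both ages. Mylpf had 22419 FPKM in Old 1 and 22820 FPKM in Young 2, and 4152 FPKM in Old 2 and 4602 FPKM in Young 1. The folds of Old over Young were 0.982 and 0.902 in the pairs with larger and with smaller sums.
For Myl1 the values were 18206 FPKM in Old 1, 16592 FPKM in Young 2, 3168 FPKM in Old 2 and 3664 FPKM in Young 1. Its folds were 1.10 and 0.865, on either side of 1. The log2 fold changes were -0.09 (standard error 1.77) for Mylpf and -0.04 (standard error 1.70) for Myl1, adjusted p = 1.00 from limma for both. Of the 50-base words in annotated Myl1 transcripts, 11.7% also occur in those of Mylf-ps, a related sequence, and reads from them could be split between the genes. No such word was shared by the other members except Actn3, with 2 words in common with Actn2. Mylpf lies on chromosome 7 from 127208890 to 127214298, plus strand, and Myl1 on chromosome 1 from 66924295 to 66945404, minus strand.

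Pvalb, the calcium buffer of fast fibers, had nearly equal levels at both ages in each pair. There were 20399 FPKM in Old 1 and 19957 FPKM in Young 2, a fold of 1.02, and 3329 FPKM in Old 2 and 3244 FPKM in Young 1, a fold of 1.03. On the log2 scale of the fit, Old minus Young came to 0.03 (standard error 1.71; adjusted p = 1.00, limma). Between the samples of an age its values differed 6.13-fold in Old and 6.15-fold in Young. The gene lies on chromosome 15 from 78191114 to 78206400, minus strand.
Tnni2, Tnnc2, Mylpf, Myl1 and Pvalb lay within 3168 to 4602 FPKM in the samples with smaller sums, a range of 1.45-fold. In the samples with larger sums the same 5 genes ranged from 11528 to 35474 FPKM, or 3.08-fold.

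Actn3 and Mybpc2 were higher in Old in the pair with larger sums. Actn3 had 6170 FPKM in Old 1 and 3293 FPKM in Young 2, a fold of 1.87, but 771 FPKM in Old 2 and 760 FPKM in Young 1, a fold of 1.01. The difference between ages was thus seen in 1 pair and hardly in the other. Mybpc2 had 2694 FPKM in Old 1 and 1628 FPKM in Young 2, a fold of 1.66, and 565 FPKM in Old 2 and 470 FPKM in Young 1, a fold of 1.20. The log2 fold changes were 0.46 (standard error 1.36) for Actn3 and 0.50 (standard error 1.25) for Mybpc2, adjusted p = 1.00 from limma for both. Actn3 lies on chromosome 19 from 4861216 to 4877909 and Mybpc2 on chromosome 7 from 44501699 to 44524656, both on the minus strand, and Gm44646 overlaps Mybpc2 on the other strand.

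Tpm2 and Myoz1 were lower in Old in both pairs. Tpm2, beta-tropomyosin, had 2977 FPKM in Old 1 and 3705 FPKM in Young 2, a fold of 0.803, and 825 FPKM in Old 2 and 1069 FPKM in Young 1, a fold of 0.772. Its locus is shared with Car9, a carbonic anhydrase gene, which was listed at 0 in the samples with smaller sums and had 18.1 FPKM in Old 1 and 83.1 FPKM in Young 2. Myoz1 had 2068 FPKM in Old 1 and 2267 FPKM in Young 2, a fold of 0.912, and 764 FPKM in Old 2 and 858 FPKM in Young 1, a fold of 0.890. Among the members above 0 in all samples it had the smallest gap between samples of an age, 2.71-fold in Old and 2.64-fold in Young. The log2 fold changes were -0.34 (standard error 1.35) for Tpm2 and -0.15 (standard error 1.29) for Myoz1, adjusted p = 1.00 from limma for both. Tpm2 lies on chromosome 4 from 43514711 to 43523765 and Myoz1 on chromosome 14 from 20649107 to 20656540, both on the minus strand.

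Read over the 9 members above 0 in all samples, both pairs gave the same direction for 7 genes. Of these, 4 were higher in Old (Tnni2, Actn3, Mybpc2 and Pvalb) and 3 were lower (Mylpf, Myoz1 and Tpm2), while Tnnc2 and Myl1 changed sides. Over all 9293 genes, 4228 were higher in both pairs, 4514 were lower in both and 551 changed sides, so a shared direction was the usual outcome and is not a result about the members. The median log2 ratio of Old over Young was 0.13 in the pair with larger sums and -0.15 in the pair with smaller sums, against -0.01 and -0.02 over all 9293 genes. With larger sums, 4 of 9 were at least 1.5-fold higher in Old (Tnni2, Tnnc2, Actn3 and Mybpc2), against 9.51% of all genes, and 0 were 1.5-fold lower, against 9.66%. With smaller sums, 0 of 9 were 1.5-fold higher, against 9.65% of all genes, and 0 were 1.5-fold lower, against 13.6%. The 1.5-fold threshold was chosen after the values were seen, each pair holds 1 sample per age, and these folds have no replicate check. Nearly all of the 9293 genes were of lower level than the members, and no share was computed over genes of like level. With larger sums the robust SD of the log2 ratio was 0.38 at 30 to 100 FPKM. It was 0.55 at 1000 to 3000 FPKM and 0.33 above that.
As a share of the summed FPKM of their sample, Tnni2 and Mybpc2 stood above Young in Old 1 and Old 2 alike. The shares of Tnni2 were 3.09% (Old 1), 1.70% (Old 2), 1.30% (Young 1) and 1.56% (Young 2), and those of Mybpc2 were 0.386%, 0.249%, 0.187% and 0.220% in the same order. This was 2 of 10 members, near the 17.7% of all genes for which the shares did so, and 1 member, Tnnt3, had lower shares in Old, against 11.9% of all genes.

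**Figure D3:**
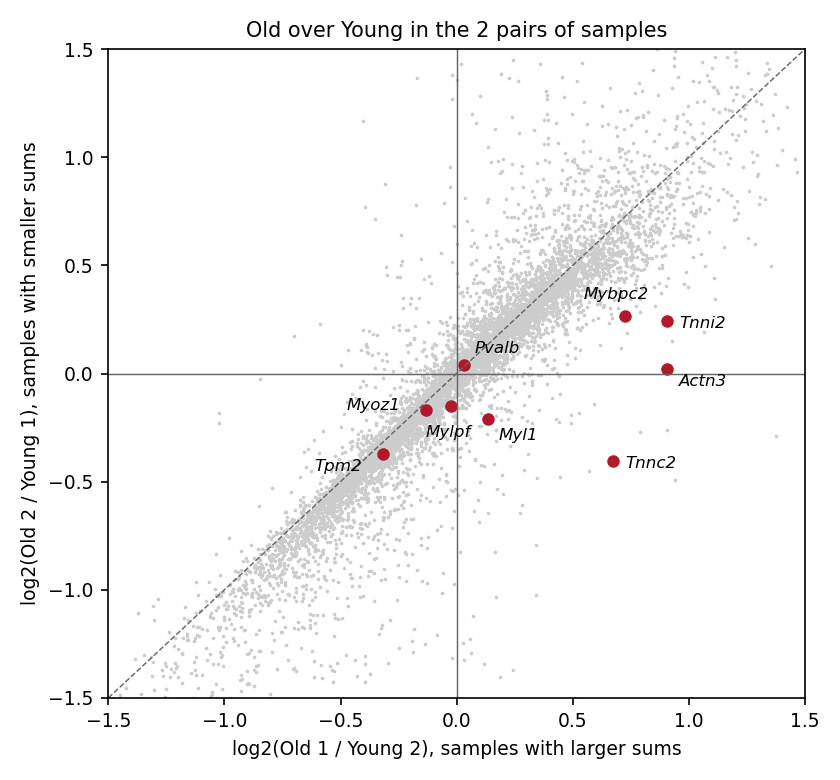
The log2 ratio of FPKM of Old 1 over Young 2 (horizontal axis) is plotted against that of Old 2 over Young 1 (vertical axis) for all tested genes above 0 in the 4 samples (grey, shown from -1.5 to 1.5) and for 9 members (red, named). The dashed line marks equal ratios. Pvalb, Myoz1 and Tpm2 lie close to the line, while Tnni2, Actn3, Mybpc2 and Tnnc2 lie to its right, with log2 ratios of 0.91, 0.91, 0.73 and 0.67 on the horizontal axis.

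Ratios of a fast-fiber gene to its slow or other counterpart were next taken within each sample, where a factor common to all genes of a sample cancels. The gap between samples of an age was not common to all genes. In Old its median log2 ratio was 0.98 at 30 to 100 FPKM and 2.35 above 3000 FPKM. Part of it therefore stays in ratios of genes at unlike levels. Of 9 pairs named for this purpose, 8 had values; that of Myl1 with Myl3 was not analysed here. The ratios of Old 1 and Old 2 lay below those of Young 1 and Young 2 for Tnnt3, Tnni2, Tnnc2, Mylpf and Tpm2, above them for Actn3 and Mybpc2, and overlapped for Myoz1. How often the ratios of other gene pairs fail to overlap between ages was not computed. Whether so many pairs without overlap are unusual was therefore not tested.
Tnni2 exceeded Tnni1, slow troponin I, 167-fold in Old 1 and 76.7-fold in Old 2, against 939-fold in Young 1 and 1236-fold in Young 2. For Tnnc2 over Tnnc1, the troponin C of slow and heart muscle, the ratios were 148 and 39.85 in Old against 706 and 1311 in Young. Mylpf over Myl2, the slow regulatory light chain, gave 47.4 and 23.5 in Old against 357 and 627 in Young.
For Tpm2 over Tpm3, the slow tropomyosin, they were 14.2 and 11.6 against 99.0 and 192. Tnnt3 over Tnnt1, slow troponin T, was 0 in Old because Tnnt3 was listed at 0, and 1256 and 1125 in Young. In all 5 of these pairs the slow gene was higher in Old: 10.8-fold and 6.61-fold for Tpm3 in the pairs with larger and with smaller sums, 30.6-fold and 20.9-fold for Tnnt1, and 13.0-fold to 14.5-fold for Tnni1, Tnnc1 and Myl2.
In the other direction, Actn3 exceeded Actn2, the alpha-actinin of all fibers, 25.5-fold and 6.79-fold in Old against 3.43-fold in Young 1 and 6.25-fold in Young 2. Mybpc2 exceeded Mybpc1, the slow myosin-binding protein C, 2.92-fold and 2.04-fold in Old against 1.09-fold and 1.18-fold in Young. Here the counterparts were lower in Old, with folds of 0.459 and 0.512 for Actn2 and 0.667 and 0.640 for Mybpc1.
Myoz1 over Myoz2, the slow myozenin, gave 25.4 and 19.4 in Old against 22.1 and 30.6 in Young, and the ages overlapped. The log2 ratio to the slow or other counterpart had a median over the 8 pairs of 4.66 (Old 1), 3.88 (Old 2), 7.44 (Young 1) and 8.38 (Young 2), a difference of -3.64 (two-sided exact permutation p = 0.333, which is the lowest that this design allows). The Old values of the Tnnt3 pair in this median are set by the listed 0 and the pseudocount of 1 FPKM, and without that pair the difference was -2.55. Of the 8 counterparts tested with limma, 4 were called higher in Old, against 0.175% of all genes, with adjusted p of 0.0015 (Tnnt1), 0.042 (Tnni1), 0.037 (Tnnc1) and 0.048 (Myl2), and 0 were called lower. The adjusted p of Tpm3 was 0.423 (limma). The pairs were chosen with earlier results of these data known, so the 4 calls are not independent evidence about the counterparts. With any 1 of the 4 samples left out, 0 of the 8 were called, and 0 were called with equal summed FPKM.

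**Figure D4:**
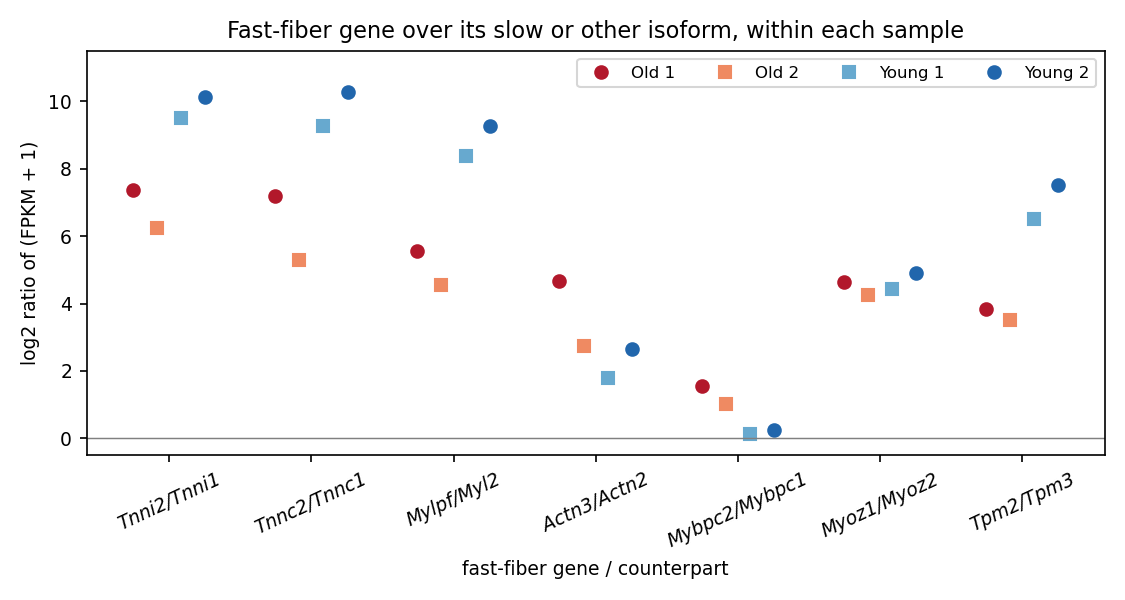
The log2 ratio of (FPKM + 1) of a fast-fiber gene to its counterpart is plotted for 7 pairs in Old 1 (dark red circles), Old 2 (orange squares), Young 1 (light blue squares) and Young 2 (dark blue circles), and the pair with Tnnt3, listed at 0 in Old, is left out. Old points lie below Young points for Tnni2, Tnnc2, Mylpf and Tpm2, above them for Actn3 and Mybpc2, and among them for Myoz1.

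Other genes of the contractile apparatus were read from 2 lists. Of 6 further fast-fiber contraction genes 5 had a value and 4 were tested, of which 1 was called higher in Old (Myh1) and 0 lower. Myh1 was listed at 0 in both Young samples and passed the filter through Old alone, so its call, like that of Tnnt3, rests on values listed at 0. Mylk2, the kinase that phosphorylates the regulatory light chain, had 629 FPKM (Old 1), 240 (Old 2), 154 (Young 1) and 352 (Young 2), with folds of 1.79 and 1.56 in the pairs with larger and with smaller sums. Casq1, the calcium store protein of fast fibers, was close to level, with folds of 0.975 and 0.947, and Myh2 had folds of 1.25 and 0.973.
Of 20 other sarcomere genes 16 were tested, of which 0 were called higher and 1 was called lower in Old (Ttn). Ttn passed the filter through Young alone, its call too rests on values listed at 0, and the call was lost with either Old sample left out (adjusted p of 0.080 without Old 1 and 0.338 without Old 2, limma). In both pairs, 6 of the 14 above 0 in all samples were higher in Old and 8 were lower. Tmod4, which caps thin filaments, had folds of 1.67 and 1.57, while Tcap, a titin cap of the Z-disc, had folds of 0.716 and 0.777 and Ldb3, a Z-disc adaptor, 0.637 and 0.741. The median log2 fold change from limma was -0.22 over these 16 genes, -0.0018 over the 10 members and -0.01 over all genes tested.

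Among all other genes tested, the 5 whose 4 values relative to the sample median lay closest to the median of the members were Gapdh, Eno3, Tcap and 2 loci without a symbol. Their root mean square distances on the log2 scale over the 4 samples were 0.329 for Gapdh, 0.605 for Eno3 and 0.777 for Tcap. Gapdh, a glycolytic enzyme gene, had 8239 FPKM (Old 1), 2065 (Old 2), 2782 (Young 1) and 11892 (Young 2), and Eno3, the muscle enolase gene, had 7140, 1492, 1561 and 9538 FPKM in the same order. The samples with larger sums were the higher ones for both genes, as for the members.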

How the data were processed

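RNA from 4 muscle samples, 2 per age, was sequenced by the authors on an Illumina HiSeq 3000. The authors trimmed reads, removed PCR duplicates with in-house programs, aligned to mm10 with TopHat2 2.0.10 with the RefSeq annotation as a guide, ran Cufflinks sample by sample, and deposited its FPKM for each locus. The submitters' processing notes also name Cuffdiff 2.1.1. Loci without a value in all 4 samples (542) and 1 incomplete line per sample were left out. Loci of 1 symbol were summed. Depth is unknown, and no count test was run.

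The 10266 genes that reached 1 FPKM in 2 or more samples were compared on log2(FPKM + 1) with limma 3.58.1 in R 4.3.3. The fit was moderated by eBayes with an intensity trend and tested two-sided, and genes were called at a Benjamini-Hochberg adjusted p under 0.05. Cuffdiff needs aligned reads and was not repeated. Fold changes on this scale understate changes of low genes, and p-values measure the spread between these samples, which may be technical. Replicate numbers were not used as a block, because the study's methods name no pairing. Deviations of same-numbered samples correlated at -0.885 over 10266 genes. With 2 samples per age, number 1 and number 2 must give the same value, and the unscaled values hold the gap in sums. This correlation therefore does not test a pairing. Named genes were all members, their counterparts, and genes at 0 in 1 age and at 1000 FPKM or more in the other. Also named were 2 lists of contractile genes and the 5 genes most alike. Members, counterparts, lists and tests were chosen with earlier results of these data known. Symbols were matched by current and older names. Transcripts were from GENCODE M21. Tables were made with numpy 2.4.6, scipy 1.17.1 and pandas 2.3.3 under Python 3.11.15, and plots with matplotlib 3.10.9. Alternatives covered the pseudocount, filter, scaling, variance model, pairing and each sample left out.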

Additional observations from a re-analysis of the deposited data

How the results depend on the processing

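Tnnt3 did not pass the filter, and 0 members were called, when 1 FPKM was required in all 4 samples and when Young 1 or Young 2 was left out. In the settings that tested it, with an adjusted p from limma of 8.8e-56 to 0.00951, the outcome was set by the Old values listed at 0 and says nothing of stability. The 18 genes higher and 13 lower in Old became 4 and 2 under that stricter filter, 75 and 129 with median scaling of the log2 values, 37 and 48 with median scaling over genes of at least 100 FPKM, 3 and 5 with equal summed FPKM, 119 and 188 with quantile normalization, and 2 and 3 with the replicate block, which pairs same-numbered samples. With the crossed pairs as a block, Old 1 with Young 2 and Old 2 with Young 1, chosen after seeing the data, they were 2812 and 3374 with 3 members called (Myoz1, Tnnt3 and Tpm2), and 3034 and 2914 after quantile normalization with 3 members called (Actn3, Mybpc2 and Tnnt3), of which Tnnt3 alone is in both. The cause of these moves was not tested. The log2 fold change turned to 0.0316 for Myl1 with median scaling over genes of at least 100 FPKM, to 0.0303 for Mylpf and 0.0794 for Myl1 with equal sums, and to 0.21 for Myoz1 with quantile normalization, with or without the crossed pairs. Leaving out 1 sample in turn, with the lone sample taken to vary like the other age, gave 0 to 6 genes higher, 0 to 8 lower and 0 to 1 members called. The log2 fold changes then ran from -0.67 to 1.82 for Tnni2, -1.54 to 1.81 for Tnnc2, -1.30 to 1.13 for Mylpf, -1.30 to 1.22 for Myl1, -1.04 to 1.96 for Actn3, -0.63 to 1.62 for Mybpc2, -0.87 to 0.57 for Myoz1, -1.27 to 0.58 for Tpm2 and -1.28 to 1.34 for Pvalb. Each of these unscaled fits set a lone sample of larger or smaller sum against both samples of the other age. The ranges therefore include the gap in scale and do not measure the stability of a difference between ages. The difference in the median log2 ratio to the slow or other counterpart ran from -4.12 to -3.17 and was -2.55 without the pair that held a 0. The 4 counterparts called higher became 5 with median scaling (over all genes or over those of at least 100 FPKM) or quantile normalization, 1 with the stricter filter or without the trend, and 0 with equal sums, the replicate block or any sample left out. The call of Ttn was lost with each scaling alternative run without the crossed pairs, with the replicate block and with the crossed block on unscaled values, and that of Myh1 with the median of FPKM taken before the log (adjusted p = 0.055), chosen after seeing the data. No read counts stand behind these values, so counting error is unknown.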
